A study of Mus musculus with 2 samples.

Results

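The genes described here are the core of TGF-beta, BMP and activin signalling in fetal mouse liver: 44 genes, picked by symbol from the 43346 annotated genes of the tables, of which 16 encode ligands, 11 receptors, 8 Smads, 5 secreted antagonists and 4 Id proteins. Total RNA longer than 200 nt came from whole liver of B6NCrl mouse embryos at embryonic day 13.5, with male and female embryos pooled. There was 1 group, untreated and described as healthy, with 2 biological replicates that were separate tissue samples sharing 1 donor entry. The SD over n = 2 therefore covers only the spread between these samples, and the single group allowed no test and no p-value. The question each comparison answers is which members were transcribed in this tissue, in what proportion, and how far the replicates differed.

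Ligands of the TGF-beta superfamily are secreted dimers that bring together type II and type I receptor kinases on the target cell. The type I receptor then phosphorylates receptor Smads, which enter the nucleus with the common Smad4: Smad2 and Smad3 downstream of TGF-beta and activin, Smad1, Smad5 and Smad9 downstream of BMP. In the fetal liver these signals are known to act on hepatoblast fate, bile duct formation, vessels and blood-forming cells, and BMP signalling in the liver also controls iron through hepcidin.

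The libraries held 39644066 expected counts in replicate 1 and 38150988 in replicate 2, of which the 44 members took 18932 and 20002. The members summed to 248.4 TPM and 278.8 TPM, or 0.0253% and 0.0288% of the TPM of all annotated genes. TPM divides the reads of a gene by its transcript length and scales each library to a common sum, and it is the scale of every level below. Hepatoblast markers were abundant, with all 6 listed genes above 1 TPM, and erythroid markers were as well, with 5 of 5. Of 7 heart markers, all were higher in replicate 2, where they summed to 93.9 TPM, against 36.8 TPM in replicate 1, and 5 skeletal muscle markers summed to 48.2 TPM in replicate 2, against 60.5 TPM in replicate 1. In RNA of a whole tissue, fewer cells of a type and less RNA per cell cannot be told apart.

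Of the 44 members, 27 reached 1 TPM in both libraries, 15 stayed below it in both and 2, Bmp4 and Acvr1b, lay on different sides of it. Over the whole series 28.1% of annotated genes and 52.1% of protein-coding genes reached this level in both libraries. By class, 9 of 16 ligands, 8 of 11 receptors, 6 of 8 Smads, 1 of 5 antagonists and 3 of 4 Id genes did so. The median over the 44 members was 1.89 TPM in replicate 1 and 2.23 TPM in replicate 2, and the median over protein-coding genes was 1.37 TPM and 1.51 TPM.

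**Figure D1:**
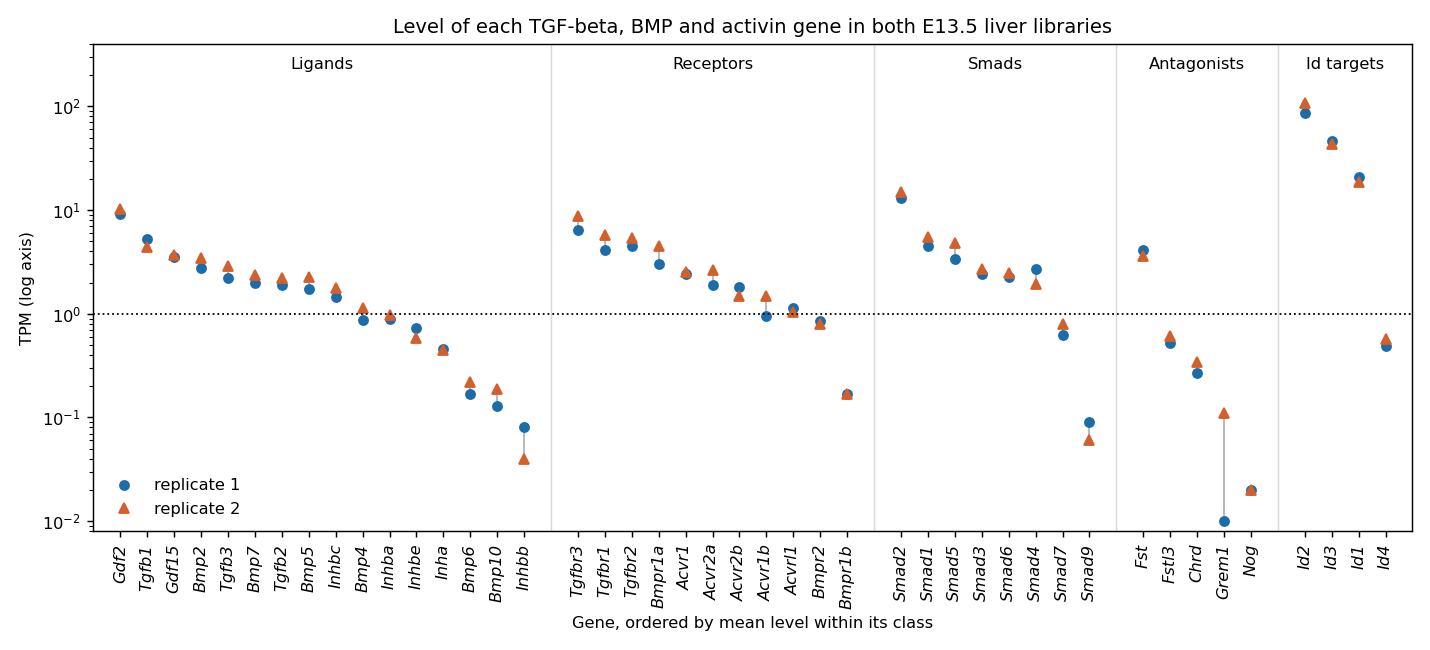
TPM of each of the 44 members in replicate 1 (circles) and replicate 2 (triangles) on a log axis, grouped by class and ordered by mean level. The dotted line marks 1 TPM. Id2 stood highest, with 86.3 TPM and 106.9 TPM, and Nog had the lowest mean, 0.02 TPM.

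Gdf2, which encodes BMP9, a circulating ligand made largely by the liver that signals to endothelium through ALK1, was the most abundant of the 16 ligand transcripts. It had 9.17 TPM in replicate 1 and 10.35 TPM in replicate 2, from 1003 and 1017 counts. The gene (ENSMUSG00000072625.1) lies on chromosome 14 from 33941039 to 33947198 of GRCm38, on the plus strand. It held 27.8% ± 0.307 (SD, n = 2) of the summed TPM of the 16 ligands. On the same strand, Gdf10, another ligand of the superfamily that is outside the 44, ends 3055 bases upstream of Gdf2 and was higher in each library, at 10.51 TPM and 12.83 TPM.

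The promoter window of Gdf2 is shown because it lies in the gap between these neighbours, which were both among the more abundant ligand genes of the tissue. It holds the 250 bases before the RefSeq start of the gene, chr14:33940789-33941038 of GRCm38.p6, plus strand.

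Gdf2: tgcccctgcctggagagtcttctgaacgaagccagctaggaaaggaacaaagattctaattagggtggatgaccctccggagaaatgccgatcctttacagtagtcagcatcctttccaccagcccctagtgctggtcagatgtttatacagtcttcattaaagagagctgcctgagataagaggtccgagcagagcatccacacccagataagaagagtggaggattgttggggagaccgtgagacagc

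The window was searched on both strands for CAGAC, the core of the Smad-binding element, and for GGCGCC, a GC-rich element found in BMP target genes, and it held neither, so no letters are in capitals. A match of one motif can share at most 1 end base with a match of the other. The 33 members with a window had 39 windows, of which 46.2% held CAGAC and 23.1% held GGCGCC. Among the RefSeq windows of all genes, 32851 in number, 42.2% held CAGAC and 9.59% held GGCGCC. Member windows were also richer in GC, with a median of 63.6%, against 52.4% over all windows, and the part of base composition in the GGCGCC share was not tested.

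After Gdf2 came Tgfb1, the TGF-beta isoform made by many blood and immune cells, with 5.21 TPM and 4.45 TPM in replicates 1 and 2. Gdf15, a distant member of the superfamily and a stress-responsive hormone, followed at 3.49 TPM and 3.70 TPM. Neither overlapped its neighbour in this order. The next 6 ligands were only partly ordered: Bmp2, Tgfb3, Bmp7, Tgfb2, Bmp5 and Inhbc had mean levels of 3.11, 2.54, 2.17, 2.05, 2.00 and 1.61 TPM. Each overlapped the next across the replicates, but Bmp2 lay above Bmp7, Tgfb2, Bmp5 and Inhbc in both libraries without overlap. Tgfb3, Bmp7 and Tgfb2 also lay above Inhbc without overlap. Bmp2, which in adult liver is made by endothelium and regulates hepcidin, had 2.76 TPM and 3.45 TPM.

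Bmp4, a mesenchymal ligand needed for liver bud formation, had 0.88 TPM in replicate 1 and 1.13 TPM in replicate 2. Bmp6, the main endothelial signal to hepcidin in adult liver, was low here, with 0.17 TPM and 0.22 TPM from 15 and 17 counts. It overlaps Txndc5, on the opposite strand, which had 66.8 TPM and 72.4 TPM. With the strand setting not given in the sources used here, reads of overlapping genes on opposite strands may be shared between them. The deposited uncertainty of the Bmp6 count (posterior SD) was 0 in both libraries. The posterior SD was not 0 for Acvr2a, Fstl3, Bmp5, Tgfb3 and Bmpr1a, which also overlap a gene on the opposite strand. For Acvr2a it was 3.09 counts in replicate 1 and 2.84 in replicate 2, and for Fstl3 4.05 and 3.80. Bmp5 had 2.98 and 2.58, Tgfb3 0.51 and 0.42, and Bmpr1a 0.32 and 0.83. Other members with such an overlap, among them Chrd, had 0 in both libraries. Bmp10, a partner of BMP9 at ALK1 that is made mainly by the heart, had 6 counts in replicate 1 and 8 in replicate 2, or 0.13 TPM and 0.19 TPM.

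Of the 5 activin and inhibin subunits, Inhbc was the only one at 1 TPM in both libraries. Inhbc, the beta C subunit and a gene of hepatocytes, had 1.46 TPM in replicate 1 and 1.76 TPM in replicate 2. Inhba, the subunit of activin A, had 0.90 TPM and 0.98 TPM, and Inhbe, the hepatocyte beta E subunit, had 0.73 TPM and 0.58 TPM. Inha, the alpha subunit that turns an activin into an inhibin, had 0.46 TPM and 0.45 TPM. Inhbb, the subunit of activin B, which is induced in liver by inflammation, was at 0.08 TPM and 0.04 TPM from 13 and 6 counts.

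Among receptors the co-receptor Tgfbr3, or betaglycan, which presents TGF-beta2 and binds inhibin, was highest. It had 6.40 TPM in replicate 1 and 8.84 TPM in replicate 2 and held 24.5% ± 1.43 (SD, n = 2) of the summed TPM of the 11 receptors. The 2 signalling receptors of TGF-beta followed at nearly the same level: Tgfbr1, the type I kinase also called ALK5, had 4.14 TPM and 5.81 TPM, and Tgfbr2, the type II kinase, had 4.49 TPM and 5.42 TPM. Their replicate ranges overlapped, and each also overlapped that of Bmpr1a.

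The BMP type I receptors were led by Bmpr1a, or ALK3, with 3.05 TPM in replicate 1 and 4.51 TPM in replicate 2. Acvr1, or ALK2, which works with ALK3 in hepcidin control, had 2.40 TPM and 2.52 TPM. Acvrl1, or ALK1, the endothelial receptor of BMP9, had 1.13 TPM and 1.05 TPM, while Bmpr1b, or ALK6, a skeletal and ovarian receptor, had 0.17 TPM in both. Acvrl1 and its co-receptor Eng, or endoglin, stood far apart in level, since Eng, which is outside the 44, had 18.5 TPM and 20.9 TPM.

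The activin type I receptor Acvr1b, or ALK4, had 0.95 TPM in replicate 1 and 1.47 TPM in replicate 2. Of the type II receptors shared by activins and BMPs, Acvr2a had 1.88 TPM and 2.62 TPM and Acvr2b had 1.82 TPM and 1.49 TPM. Acvr2a overlaps Orc4, on the opposite strand, which had 43.9 TPM and 52.7 TPM. Bmpr2, the type II receptor of BMPs, was lower per length, with 0.85 TPM and 0.79 TPM, although its long transcript gave 410 and 344 counts.

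Tgfbr2 and Acvr2b each had counts on 2 coding transcripts that differ by a coding stretch, and both forms had counts in both libraries. The Tgfbr2 form with an extra exon of 75 bases, known as type II-B, held 32.9% of the gene's TPM in replicate 1 and 22.5% in replicate 2, from 261.9 and 193.8 counts. The Acvr2b form with 24 extra bases at the start of an exon held 63.9% and 84.5%, from 70.5 and 68.1 counts. In the deposited tables the Tgfbr2 transcripts are 4785 and 4710 nt long, 75 apart. The Acvr2b transcript with the extra bases is 1696 nt long and the other 1729 nt, so these also differ elsewhere, and the shares are of whole transcripts, not of reads on the stretch. Both stretches keep the reading frame, adding 25 codons to Tgfbr2 and 8 to Acvr2b. They are shown because they separate receptor forms that the gene totals merge, with positions from GENCODE release M21 on GRCm38: chr9:116158271-116158345, minus strand, for Tgfbr2, and chr9:119428201-119428224, plus strand, for Acvr2b. No letters are in capitals.

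Tgfbr2 extra exon: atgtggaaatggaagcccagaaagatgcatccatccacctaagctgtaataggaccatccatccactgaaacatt

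Acvr2b extra stretch: tcacgtacgagccacccccgacag

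Smad2 was the most abundant Smad. It had 13.2 TPM in replicate 1 and 14.8 TPM in replicate 2 and held 45.1% ± 0.382 (SD, n = 2) of the summed TPM of the 8 Smads. Its partner in the same arm, Smad3, which unlike full-length Smad2 binds DNA directly, had 2.40 TPM and 2.70 TPM. Transcripts of Smad2 that hold exon 3, of 90 bases, which keeps the full-length protein from binding DNA, made up 88.9% and 96.6% of its TPM.

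Of the BMP Smads, Smad1 had 4.51 TPM in replicate 1 and 5.52 TPM in replicate 2, and Smad5 had 3.36 TPM and 4.78 TPM. These ranges overlapped, whereas Smad9, the third BMP Smad, was at 0.09 TPM and 0.06 TPM from 17 and 10 counts. The common Smad4, which joins the receptor Smads of both arms, had 2.68 TPM and 1.94 TPM. Of the inhibitory Smads, which block receptors and are induced by the pathway itself, Smad6 had 2.26 TPM and 2.49 TPM and Smad7 had 0.63 TPM and 0.80 TPM.

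Fst, or follistatin, which binds activins, was the only antagonist above 1 TPM in both libraries. It had 4.13 TPM in replicate 1 and 3.63 TPM in replicate 2 and held 80.3% ± 4.50 (SD, n = 2) of the antagonist TPM. Its relative Fstl3 had 0.52 TPM and 0.61 TPM and overlaps Prss57 on the opposite strand, at 2.85 TPM and 2.28 TPM. The BMP antagonist Chrd, or chordin, had 0.27 TPM and 0.34 TPM and overlaps Thpo, the gene of thrombopoietin, on the opposite strand, at 2.75 TPM and 3.50 TPM. Nog, or noggin, another BMP antagonist, had 1 count in each library. Grem1, or gremlin, a mesenchymal BMP antagonist, had 15 counts in replicate 2 and 1 in replicate 1.

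The Id genes encode helix-loop-helix proteins that block other transcription factors, and they are standard targets of BMP Smads. Id2 (ENSMUSG00000020644.8, chromosome 12, 25093799 to 25097140, minus strand) had 86.3 TPM in replicate 1 and 106.9 TPM in replicate 2, above 94.6% of protein-coding genes. Id3 had 46.1 TPM and 43.1 TPM and Id1 had 20.9 TPM and 18.7 TPM, so no 2 Id genes overlapped. Id4 was at 0.49 TPM and 0.57 TPM. The 4 genes together held 153.8 TPM and 169.2 TPM of the members' 248.4 and 278.8 TPM. Id genes are also controlled by other signals, and transcript levels alone do not show which signal acted.

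The classes were set against the receptors within each library, as the difference in median log2(TPM + 0.1) with its mean and SD over the replicates. Id genes lay above receptors by 3.71 ± 0.38 and antagonists lay below them by a difference of -2.50 ± 0.11 (n = 2). Ligands lay slightly below receptors, by a difference of -0.28 ± 0.08. Smads and receptors could not be separated, with a difference of 0.23 ± 0.26 that was 0.41 in replicate 1 and 0.04 in replicate 2.

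In summed TPM, ligands held 33.3 in replicate 1 and 37.0 in replicate 2, receptors 27.3 and 34.7, Smads 29.1 and 33.1, and antagonists 4.95 and 4.71. The first 3 classes therefore lay within a narrow range, and the 5 antagonists far below it. These sums cover different numbers of genes and depend on which were listed. The 11 other extracellular antagonists described below summed to 50.3 TPM in replicate 1 and 58.8 TPM in replicate 2, above each of the 3 classes. Their median was low, at 0.30 TPM and 0.39 TPM, beside 0.27 TPM and 0.34 TPM for the 5.

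Split by arm, the balance differed from step to step. Ligands of the TGF-beta and activin arm, Tgfb1 to Tgfb3 and the 4 beta subunits, summed to 12.5 TPM in replicate 1 and 12.9 TPM in replicate 2, against 16.9 and 19.9 TPM for the 7 BMP ligands. The log2 ratio of the sums was -0.53 ± 0.14 (SD, n = 2). At the type I receptors the TGF-beta and activin arm, Tgfbr1 and Acvr1b, summed to 5.09 TPM and 7.28 TPM, against 6.75 TPM and 8.25 TPM for Acvr1, Acvrl1, Bmpr1a and Bmpr1b, a log2 ratio of -0.29 ± 0.16. At the receptor Smads the order was the opposite: Smad2 and Smad3 summed to 15.6 TPM and 17.5 TPM, against 7.96 TPM and 10.36 TPM for Smad1, Smad5 and Smad9, or 1.82-fold more. Each of the 3 ratios had the same sign in both libraries. The sums rest on few genes, since Gdf2 gave over 50% of the BMP ligand sum and Smad2 most of the Smad2 and Smad3 sum.

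**Figure D2:**
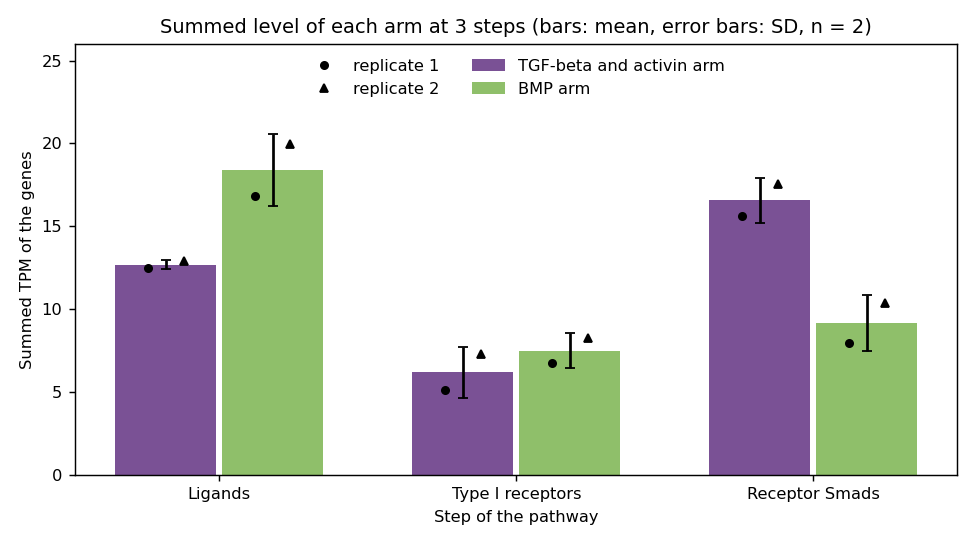
Summed TPM of the genes of the TGF-beta and activin arm and of the BMP arm at the ligand, type I receptor and receptor Smad steps. Bars are means and error bars SD over n = 2, with replicate 1 as circles and replicate 2 as triangles. Over the listed genes the BMP arm is higher at the ligand and receptor steps. The TGF-beta and activin arm is higher at the Smads, 16.6 TPM against 9.16 TPM on average. Gdf10 and Gdf3 are not in the ligand sums.

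The replicates were compared gene by gene as the ratio of expected counts after TMM scaling, with an exact 95% interval that covers counting error only. Of the 44 members, 40 had a mean count of at least 10, and Bmp10, Inhbb, Nog and Grem1 did not. None of the 40 differed by over 2-fold, and 2.76% of the 15997 genes with such counts did. The interval lay above 1, higher in replicate 2, for 7 members, where 20.4% of all genes did so. It lay below 1, lower in replicate 2, for another 7, where 18.4% of all genes did so. As shares of 40 these counts are near the background.

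The members higher in replicate 2 were mostly receptors: Acvr1b, Tgfbr1, Acvr2a, Tgfbr3 and Bmpr1a had log2 ratios of 0.48, 0.34, 0.33, 0.33 and 0.31, and Smad5 and Id2 had 0.15 and 0.15. Those lower in replicate 2 came from every class. Smad4 had the lowest, -0.55, with 216 counts in replicate 2 and 317 in replicate 1, followed by Acvr2b at -0.45, Fst at -0.34, Tgfb1 and Id1 at -0.31, Bmpr2 at -0.25 and Id3 at -0.24. Id2 thus differed in direction from Id1 and Id3. Scaling to the spike-ins in place of TMM turned the 7 higher members lower, to between -0.42 and -0.09.

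The median ratio was 0.19 over receptors, 0.10 over ligands, 0.06 over Smads, -0.10 over Id genes and -0.17 over the 3 antagonists measured, beside -0.000605 over all genes. All 6 BMP ligands with enough counts were higher in replicate 2, with ratios from 0.02 to 0.24, none with an interval above 1. Ratios also moved with transcript length over all genes, from a median of -0.13 in the shortest of 5 equal length classes to 0.09 in the longest. After the median of each gene's length bin was subtracted, receptors had 0.09, Smads -0.01 and BMP ligands 0.10, with Gdf2 at -0.03. Before this subtraction, the 7 endothelial markers were all higher in replicate 2, with a median ratio of 0.23. They summed to 95.3 TPM there and 76.5 TPM in replicate 1. The smallest ratio was 0.02 for Eng, with a fold interval of 0.96 to 1.08. After the subtraction the endothelial median was 0.15 and Eng was at -0.05. The 4 cholangiocyte markers were all higher in replicate 2, summing to 11.6 TPM there and 6.47 TPM in replicate 1. Their median ratio was 0.44, with none at 0, and 0.43 after length bins were subtracted. The part of endothelial or cholangiocyte RNA in the receptor ratios was not tested.

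**Figure D3:**
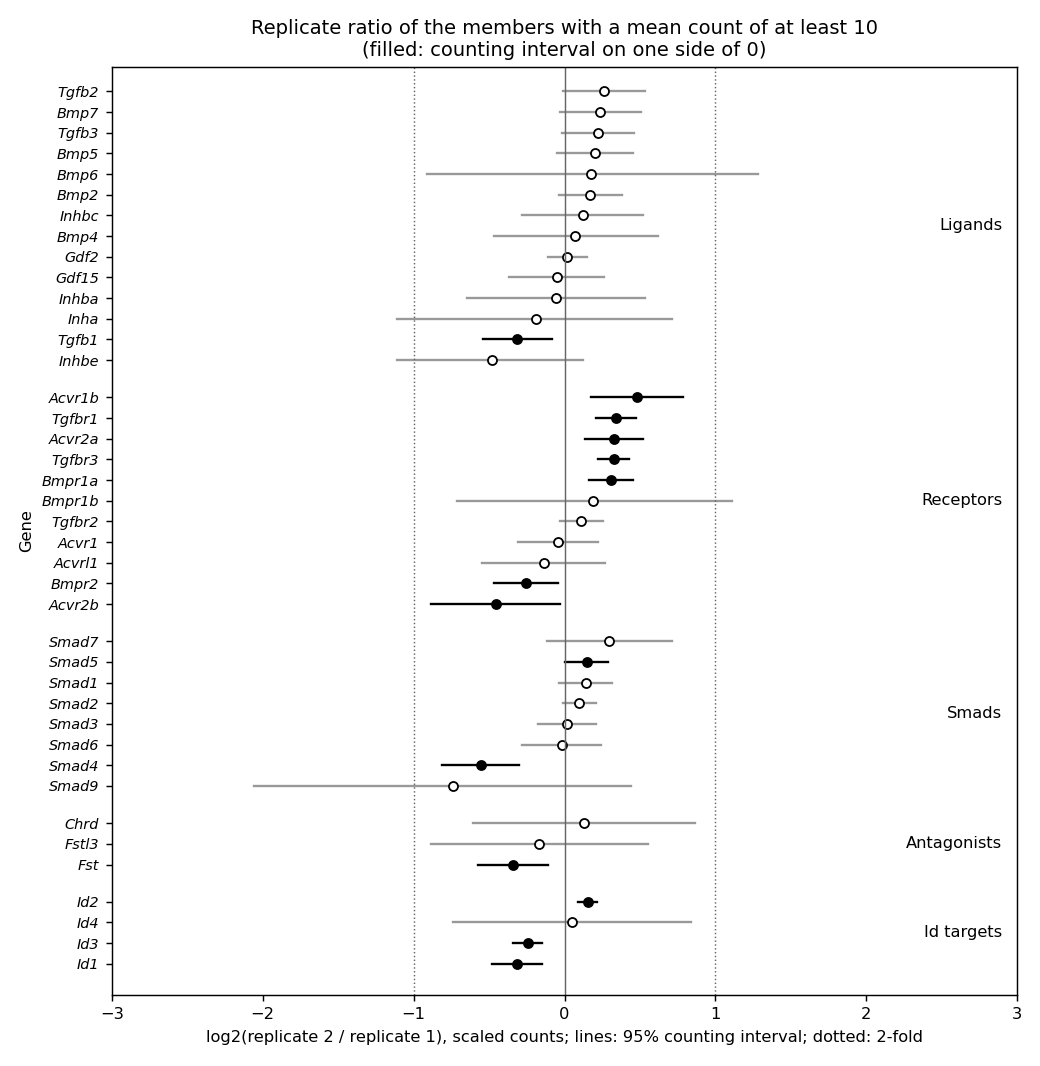
log2 ratio of replicate 2 over replicate 1 for the 40 members with a mean count of at least 10, with 95% counting intervals as lines. Filled points have an interval on one side of 0, dotted lines mark 2-fold, and all 40 points lie between -0.74 and 0.48.

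Grem1, which lies below the count limit, was the only member whose replicates differed by over 2-fold beyond counting error, with a log2 ratio of 3.37 and a fold interval of 2.31 to 631. It rests on 1 count in replicate 1. Heart markers were higher in replicate 2 as well, with 6 of 7 over 2-fold and a median log2 ratio of 2.48, whereas the 7 stellate and mesenchymal markers had a median of -0.07 with 3 of 7 higher. Of the 4 gut and pancreas markers with enough counts, 2 were higher in replicate 2 and 2 lower. Cpa1 was at 1.09 and Cela1 at -0.47. Pdx1, from the same list and below the count limit like Grem1, had 1 count in replicate 1 and 11 in replicate 2. The part of other tissue in the Grem1 counts was not tested.

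The transcript tables show which isoform stood behind each level. Of the 27 members at 1 TPM in both libraries, 6 had 1 annotated transcript and 21 had more. The same transcript led in both libraries in 20 of these 21, and in 16 its mean share over the libraries was above 80% of the gene's TPM. No leading transcript was non-coding. Tgfb3 and Id2 are among the 6 with 1 annotated transcript, whose share of 100% is fixed by the annotation. For Bmp5, Smad3, Smad6 and Acvr2a, which have more than 1, the leading one held 100% in both libraries.

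Acvrl1 was the exception. Acvrl1-201 held 61.6% of its TPM in replicate 1 and 0% in replicate 2, while Acvrl1-205 held 0% and 61.9%. Both are protein-coding, and the deposited counts give each of the long forms all of its reads in 1 library and none in the other, 92.8 counts for Acvrl1-201 in replicate 1 and 75.5 for Acvrl1-205 in replicate 2. The gene's total also depended on the estimate, since the deposited posterior mean of Acvrl1 averaged 1.95 TPM, against 1.09 TPM for the main estimate.

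Tgfb2 also split its TPM. Tgfb2-201, coding, held 48.1% in replicate 1 and 49.8% in replicate 2, and short retained-intron transcripts held much of the rest: Tgfb2-205 with 41.3% in replicate 1 and Tgfb2-202 with 30.3% in replicate 2. These rest on 23.6 and 14.6 counts, and by counts Tgfb2-201 held 78.1% on average. Smad5 had 89.0% and 73.4% in its coding Smad5-201, with the retained-intron Smad5-206 at 10.1% and 25.1%. Smad5 was higher in replicate 2 in total, and of its 4.78 TPM there Smad5-201 made 3.51 TPM, against 3.0 TPM of 3.36 TPM in replicate 1. Over all 27 members the coding transcripts held at least 61.6% of a gene's mean TPM.

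**Figure D4:**
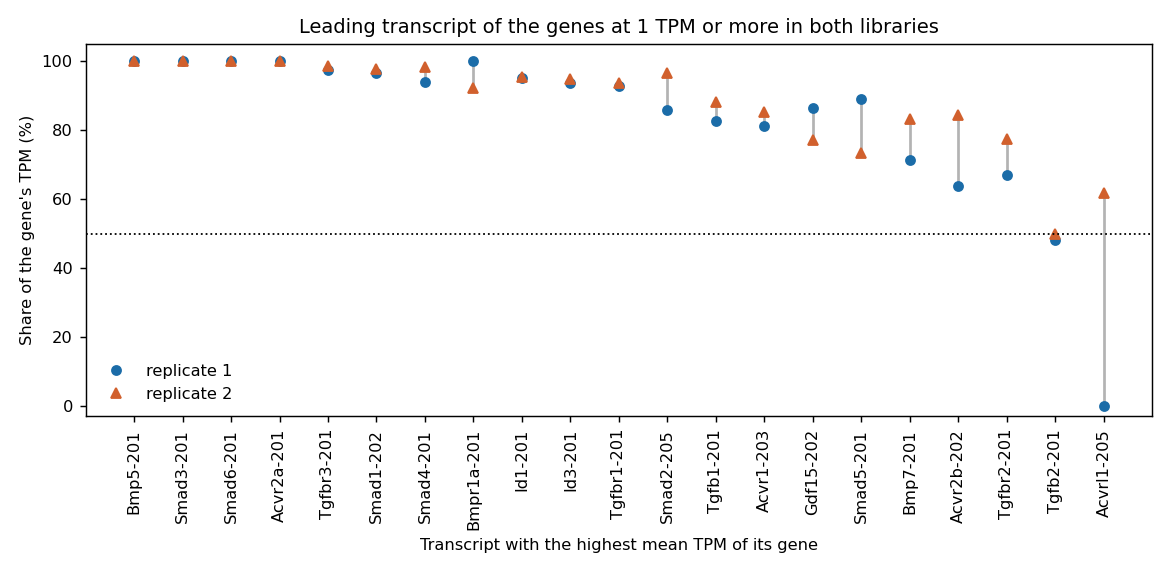
Share of a gene's TPM held by its leading transcript in replicate 1 (circles) and replicate 2 (triangles), for the 21 members at 1 TPM in both libraries with more than 1 annotated transcript. The dotted line marks 50%. Tgfb2-201 lies just under it in both libraries, and Acvrl1-205 is at 0% in replicate 1 and 61.9% in replicate 2.

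Of a wider list of 73 pathway genes outside the 44, 35 reached 1 TPM in both libraries. Among all protein-coding genes 52.1% did so, and the share of the list was near this background. Intracellular regulators were nearly all present, 12 of 13, led by Fkbp1a, which guards type I receptors against firing without ligand, with 159.5 TPM and 176.8 TPM. Genes for the latency and activation of TGF-beta reached 1 TPM in 8 of 12 cases. Thbs1, which can release active TGF-beta, had 27.1 TPM and 37.5 TPM, and Nrros, which tethers latent TGF-beta on myeloid cells, had 20.6 TPM and 22.1 TPM.

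Antagonists outside the 5 core ones were not uniformly low. Of 11, 5 reached 1 TPM in both libraries, with Fstl1, a follistatin-like secreted protein, with 24.3 TPM and 28.4 TPM, and Twsg1, which modulates BMP with chordin, at 13.4 TPM and 17.1 TPM. Tmprss6, the protease that lowers hepcidin by cutting hemojuvelin, had 6.76 TPM and 8.05 TPM. Receptors and co-receptors outside the 11 core ones gave 4 of 10, among them Hfe2, or hemojuvelin itself, at 1.21 TPM and 1.53 TPM, and Bambi, a decoy receptor, at 3.59 TPM and 3.33 TPM.

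Other targets were mostly low, with 3 of 11 at 1 TPM in both libraries. Hamp, the hepcidin gene and the best-known BMP target of liver, had 1.81 TPM in replicate 2 and 3.42 TPM in replicate 1, from 18 and 38 counts. Its log2 ratio was -1.06, with a fold interval of 0.25 to 0.85. Cdkn1a had 10.5 TPM and 8.79 TPM, and Tgfbi, a matrix protein named for its induction by TGF-beta, had 8.75 TPM and 9.46 TPM. The high Id1 to Id3 levels were thus not shared by most other targets on the list. All 6 of the other targets with a mean count of at least 10 were lower in replicate 2, with a median log2 ratio of -0.40. The interval lay below 1 for 3 of these 6, where 18.4% of all genes did so.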

How the data were processed

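Total RNA-seq tables of 2 libraries of fetal liver were used. The deposited readme names the build mm10 and GENCODE release M4, with 1 library per table. Aligner and counter: not given in the sources used here. Expected counts are estimated reads per gene or transcript, per the file headers, and come with a posterior SD, which was at most 4.05 counts among the 44 members and 0 in both libraries for 39. TPM, and its posterior mean, were computed by the authors to 1 common sum per library that also takes in spike-ins and transfer RNA entries. FPKM values were deposited by the authors and served only as an alternative to TPM.

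Gene IDs were named from GENCODE release M21 on GRCm38, where all 44 members had a row. Of 74 further pathway genes 73 had one, Gdf1 is not analysed here, and Ctgf was matched as Ccn2 by its RefSeq synonym. The members and lists were chosen with earlier results of these data known. Named genes were all members, the 3 most abundant of each further list and low ones that are counted. Not every gene this rule names is reported here. Genes on the opposite strand of a member were named for the overlap, and Dand5, Nodal, Tdgf1, Lefty2, Lrrc32 and Pdx1 after their values were seen.

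Replicate ratios took expected counts with 0.5 added, scaled by TMM (edgeR 4.0.16) and put on a log2 scale, where the mean count reached 10. Intervals are exact 95% binomial and cover counting error only. Alternatives used DESeq2 1.42.0 size factors (R 4.3.3), total counts, spike-ins, other pseudocounts, filters and each replicate alone. The scaling step was tested on simulated data. Python 3.11.15 with scipy 1.17.1, pandas 2.3.3, numpy 2.4.6 and, for figures, matplotlib 3.10.9 did the rest. Promoter windows are from RefSeq, and 11 members had none in the table.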

Additional observations from a re-analysis of the deposited data

How the results depend on the processing

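Directions of the class differences held under every alternative run, but their sizes moved. The ligand difference from receptors was -0.19 with a pseudocount of 1 and -0.14 over members with a mean of at least 0.1 TPM. That of antagonists was -1.29 with a pseudocount of 1, -2.80 with 0.01 and -1.78 over members with at least 0.1 TPM, and that of Id genes was 3.27 with a pseudocount of 1. By expected counts, which favour long transcripts, Gdf2 held 31.3% of ligands, Tgfbr3 28.4% of receptors and Smad2 35.3% of Smads. The number of members over 2-fold apart was 4 with spike-in scaling and 2, Grem1 and Inhbb, with no filter on counts. The spike-ins had a median log2 ratio of 0.56, so scaling to them lowers every ratio by that amount: Tgfbr1 became -0.22, Acvr1b -0.087, Bmpr1a -0.26, Acvr2a -0.24, Tgfbr3 -0.24, Smad5 -0.42 and Id2 -0.41. DESeq2 size factors kept all 14 calls of single members, and total counts ended 2, Acvr2b at -0.39 and Bmpr2 at -0.19. The alternatives of length and GC bins, the arm sums and coding transcripts were chosen after the data were seen. Subtracting length bins turned the Smad median ratio to -0.0098, and posterior mean TPM moved the type I receptor arm ratio to -0.49. The count of members at 1 TPM in both libraries was 34 at a limit of 0.5 TPM, 19 at 2 TPM and 26 over coding transcripts alone. No paired analysis was possible because the series has a single group. With n = 2 and few counts, levels of Bmp10, Inhbb, Smad9, Nog and Grem1 are limited by depth.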

Other observations

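Several genes of the Nodal branch, which uses activin receptors and Smad2 and is known mainly from the early embryo, were read in this fetal liver. Lefty1, a secreted Nodal inhibitor, had 5.33 TPM in replicate 1 and 5.83 TPM in replicate 2, and Gdf3, a Nodal-related ligand, had 4.86 TPM and 4.83 TPM. Dand5, another Nodal inhibitor, had 3.36 TPM and 2.99 TPM. Nodal itself was lower, with 0.41 TPM and 0.44 TPM from 31 and 30 counts, and Tdgf1, its co-receptor, had 0 counts in both libraries. Lefty2, a close copy of Lefty1, had 2.03 and 1.03 expected counts, against 246.0 and 217.0 for Lefty1, and the deposited posterior SD of both was 1.09 counts in replicate 1 and 1.06 in replicate 2. Reads of such close copies may be split uncertainly. These genes were singled out after their values were seen.

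Lrrc32, or GARP, which anchors latent TGF-beta on platelets and regulatory T cells, had the highest replicate ratio of the pathway list, with 5.47 TPM in replicate 2 and 3.19 TPM in replicate 1 and a log2 ratio of 0.62 (95% counting interval of the fold 1.36 to 1.74). The 5 megakaryocyte markers had a median log2 ratio of -0.15 with 1 of 5 higher in replicate 2, and the 7 endothelial markers had 0.23 with 7 of 7 higher. The part of either cell type in the Lrrc32 ratio was not tested.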
